A study of Mus musculus with 20 samples.

Results

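BMP4 at 10 ng/ml was the lowest dose of recombinant BMP4 given to C2C12 cells, an established mouse myoblast line. It was represented by the 2 of 20 arrays whose titles name that dose. They were set against the 5 control arrays of the same cells, 2 untreated and 3 given methanol. All wells were plated alike overnight in multiwell plates and then given fresh medium, so the treatment was the labelled difference between the groups. Numbers in the titles place the arrays in 2 runs, with numbers 10 to 17 in run 1 and 18 to 29 in run 2. BMP4 10 ng/ml replicate 1 lay in run 1 with untreated replicate 1 and methanol replicate 1. BMP4 10 ng/ml replicate 2 lay in run 2 with untreated replicate 2 and methanol replicates 2 and 3. The labels do not say what the runs were, how long the cells were treated or whether the wells were separate cultures, so p-values measure only how far these samples spread, and that spread may be technical. The series sets 3 compounds beside BMP4 at 10, 100 and 300 ng/ml. The doses of 100 and 300 ng/ml, with 2 arrays each, are given here beside the lowest dose.

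BMP4 is a secreted ligand that brings together type I and type II receptor serine/threonine kinases on the cell surface. The activated receptors phosphorylate SMAD1, SMAD5 and SMAD9, which enter the nucleus with SMAD4 and turn on early targets such as the Id genes and the inhibitory Smad6 and Smad7. In C2C12 cells, BMPs are known to hold back muscle differentiation and to bring on osteoblast traits.

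All values were log2 signals from Affymetrix mouse gene arrays, with array medians from 4.93 to 5.05. The lowest median belonged to BMP4 10 ng/ml replicate 1 (4.93), and replicate 2 stood at 5.03. Replicate 1 at that dose also had the highest SD over probe sets (2.21), and replicate 2 had 2.18. Over all probe sets the 2 BMP4 10 ng/ml arrays correlated at r = 0.987, and pairs of controls correlated at r = 0.979 to 0.991. Pairs of a BMP4 10 ng/ml array and a control correlated at r = 0.979 to 0.988, so r did not set the groups apart. Genes that differed by at least 1 on the log2 scale numbered 155 to 394 in these pairs. In pairs of controls they numbered 19 to 122, and between the 2 BMP4 10 ng/ml arrays 107. The 10 myoblast markers averaged 9.77 to 9.81 in the BMP4 10 ng/ml arrays, against 9.88 to 9.96 in the controls. Desmin (Des), the muscle intermediate filament, measured 11.24 and 11.49 at BMP4 10 ng/ml, against 11.48 to 11.69 in the controls. Macrophage markers averaged 4.39 to 4.52 in the BMP4 arrays and 4.25 to 4.37 in the controls. Endothelial markers averaged 4.08 to 4.27 and epithelial markers 5.04 to 5.10 in the BMP4 arrays, against 3.98 to 4.27 and 4.94 to 5.20 in the controls. None of the 6 macrophage, 6 endothelial or 5 epithelial markers measured passed the test. The 6 adipocyte markers averaged 5.76 to 6.14 in the BMP4 arrays, against 5.36 to 5.46 in the controls, and 2 of them rose. The 6 osteoblast markers averaged 5.02 to 5.50 in the BMP4 arrays, against 4.74 to 4.87 in the controls, and 1 rose. The 6 chondrocyte markers averaged 5.42 to 5.58 in the BMP4 arrays, against 5.51 to 5.73 in the controls, and 1 fell. Over all genes 2.47% passed the test. The part of the markers in the other results was not tested. In bulk RNA, fewer cells of a type and less RNA per cell cannot be told apart.

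Which genes already changed at the lowest dose was asked first. At BMP4 10 ng/ml the cells had more RNA of 7 small leucine-rich proteoglycans, Sfrp2, Car3 and Car2, and less of Nefl, Nefm and 10 sarcomere genes. The osteoblast genes Sp7 and Alpl and the myogenic regulators Myod1 and Myog did not pass the test. Of 22180 genes, 248 rose (1.12%) and 300 fell (1.35%), which together made 2.47% of all genes, in the limma fit at a Benjamini-Hochberg adjusted p under 0.05. Among the raised genes 70 changed by at least 1 on the log2 scale, and among the lowered genes 86. Both BMP4 arrays lay above all 5 controls for 1449 genes and below them for 1979, which is 15.5% of all genes, and all 548 called genes were among these. The median log2 difference was 0.77 over the raised and -0.75 over the lowered genes, against -0.023 over all genes. Leaving out BMP4 10 ng/ml replicate 1 lowered the count to 248 genes, of which 94 rose and 154 fell. Leaving out replicate 2 left 573, of which 363 rose and 210 fell.

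Sfrp2 showed the largest rise. Sfrp2, a secreted modulator of Wnt signalling, measured 9.89 and 8.40 at BMP4 10 ng/ml, against 6.01, 6.10, 5.96, 6.03 and 5.97 in the controls. The difference was 3.13 on the log2 scale (SE 0.27, 8.78-fold, limma adjusted p = 4.38e-05), and replicate 1 stood well above replicate 2. Fmod, a small proteoglycan that binds collagen fibrils, measured 9.78 and 8.36 at BMP4 10 ng/ml, against 6.34, 6.42, 6.13, 5.70 and 6.28 in the controls. It rose by 2.90 (SE 0.30, limma adjusted p = 0.000158), again more in replicate 1. The probe set used for Sfrp2 is the brighter of its pair, and the dimmer one differed by 0.37.

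The carbonic anhydrase genes Car3 and Car2 came next, and their product turns carbon dioxide into bicarbonate. Car3, a cytosolic form of muscle and fat, measured 11.35 and 10.89 at BMP4 10 ng/ml, against 8.24, 8.36, 8.47, 8.43 and 8.50 in the controls (difference 2.72, SE 0.14, limma adjusted p = 3.14e-07). Car2 measured 9.22 and 8.78 at BMP4 10 ng/ml, against 6.34, 6.47, 6.68, 6.59 and 6.58 in the controls (difference 2.47, SE 0.17, limma adjusted p = 6.05e-06). For both genes the 2 BMP4 arrays lay close together and over 2 log2 units above each control. Car9, a membrane-bound form, did not pass (0.41, adjusted p = 0.107).

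Parm1, a mucin-like membrane protein, stood at 7.94 and 7.82 at BMP4 10 ng/ml, against 5.81, 5.50, 5.41, 5.57 and 5.64 in the controls. Its difference of 2.30 (SE 0.15, limma adjusted p = 3.44e-06) was nearly the same in each run, 2.29 in run 1 and 2.28 in run 2. The other genes among the 15 largest rises were Aspn, Aoc3, Rgs4, Slc1a3, Postn, Prg4, Phex, Svep1, Enpep and Gas6, with differences between 1.77 (Gas6) and 2.42 (Aspn). Aoc3 is an amine oxidase of the cell surface, Rgs4 a regulator of G proteins, Slc1a3 a glutamate transporter, and Gas6 a ligand of the TAM receptor kinases. All 15 passed under each of the 18 alternative settings tried.

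**Figure D1:**
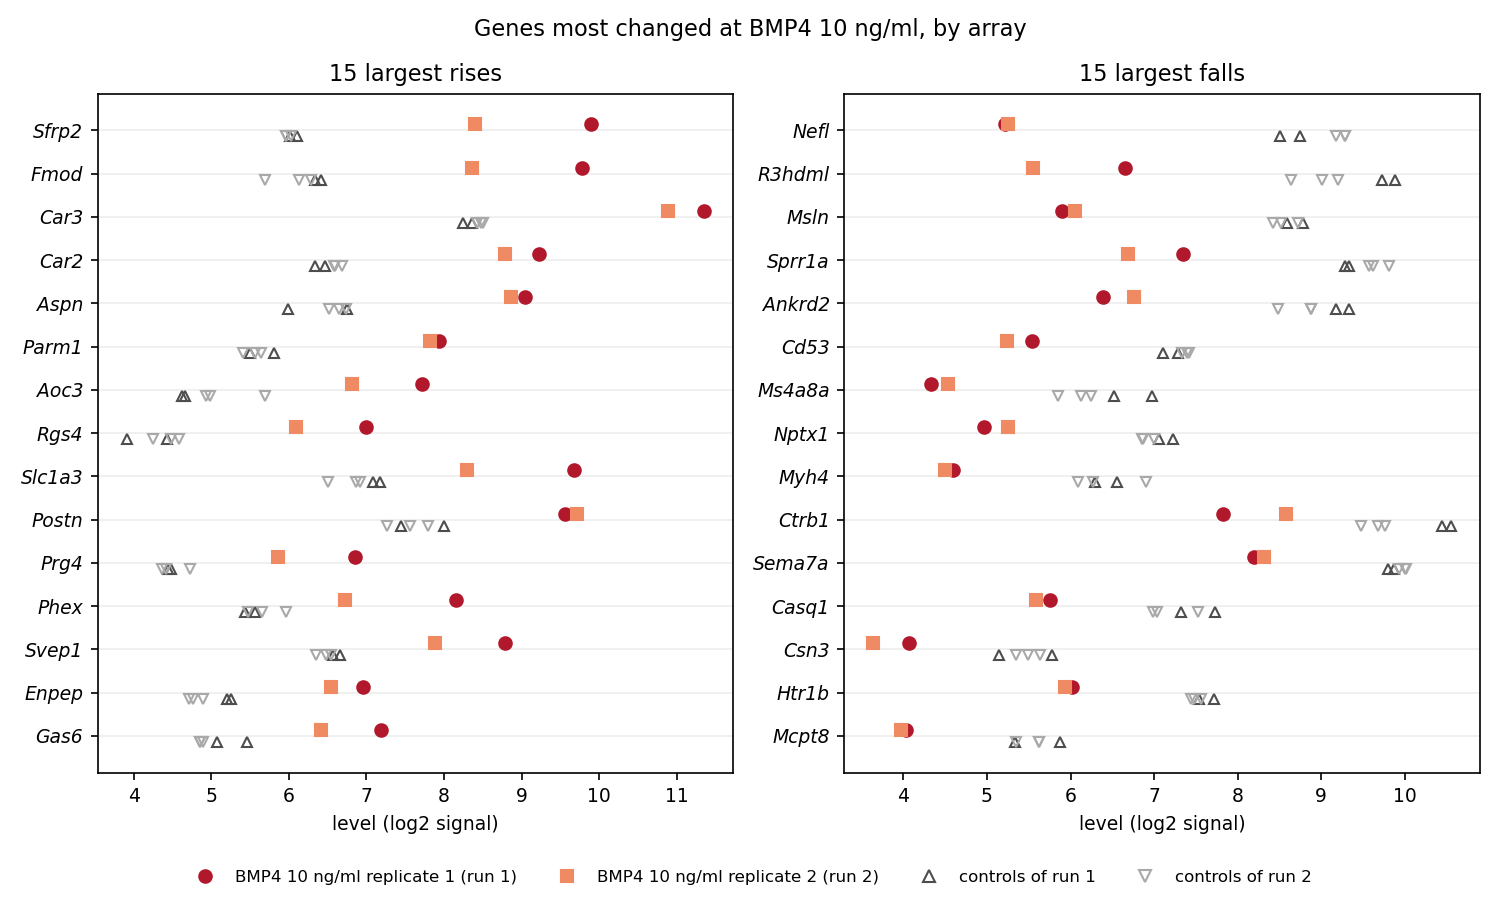
Levels (log2 signal, horizontal axis) of the 15 genes with the largest rise and the 15 with the largest fall at BMP4 10 ng/ml, with filled symbols for the 2 BMP4 arrays above open symbols for the 5 controls, by run. No BMP4 symbol overlaps the controls in any of these rows; Sfrp2 lies at 9.89 and 8.40 against 5.96 to 6.10.

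Nefl fell most of all genes. Nefl, the light chain of neurofilaments, measured 5.22 and 5.25 at BMP4 10 ng/ml, against 8.50, 8.74, 9.18, 9.28 and 9.28 in the controls. The difference was -3.76 (SE 0.19, 13.6-fold lower, limma adjusted p = 3.14e-07). Its partner Nefm, the medium chain, measured 3.46 and 3.60 at BMP4 10 ng/ml, against 4.42, 4.80, 5.10, 5.15 and 5.34 in the controls (difference -1.43, SE 0.24, limma adjusted p = 0.0051). For both, every BMP4 value was below every control, and the controls of run 1 were lower than those of run 2. The third neurofilament gene, Nefh, did not pass (0.26, adjusted p = 0.567). Nefm did not pass without BMP4 10 ng/ml replicate 1 (adjusted p = 0.0899) or with untreated arrays alone as the control (0.0636).

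Msln, which encodes the membrane-anchored mesothelin, measured 5.90 and 6.05 at BMP4 10 ng/ml, against 8.59, 8.78, 8.42, 8.72 and 8.52 in the controls. Its difference of -2.63 (SE 0.11, limma adjusted p = 1.58e-07) had the lowest adjusted p of the 15 largest falls. R3hdml measured 6.65 and 5.55 at BMP4 10 ng/ml, against 9.73, 9.88, 9.20, 9.01 and 8.64 in the controls (difference -3.19, SE 0.31, limma adjusted p = 0.000102). The remaining genes among the 15 largest falls were Sprr1a, Ankrd2, Cd53, Ms4a8a, Nptx1, Myh4, Ctrb1, Sema7a, Casq1, Csn3, Htr1b and Mcpt8, with differences from -2.50 (Sprr1a) to -1.56 (Mcpt8). They include a cornified envelope protein (Sprr1a), a tetraspanin known from leukocytes (Cd53), a neuronal pentraxin (Nptx1) and a serotonin receptor (Htr1b). Of the 15 falls, Ctrb1, a chymotrypsinogen gene, did not pass without BMP4 10 ng/ml replicate 1 (-1.41, adjusted p = 0.0856). The other 14 passed under all 18 alternatives.

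Matrix genes were described list by list, and the lists were chosen with earlier results of these data known. Small leucine-rich proteoglycans organise collagen fibrils. Of the 12 measured, 7 rose and none fell (58.3% called, against 2.47% of all genes). Their median was 0.82, against -0.023 over all genes. Besides Fmod the 7 were Aspn, Prelp, Ecm2, Omd, Ogn and Dcn. Prelp measured 11.12 and 10.82 at BMP4 10 ng/ml, against 9.45, 9.38, 9.37, 9.14 and 9.21 in the controls (difference 1.66, SE 0.11, limma adjusted p = 3.44e-06). Decorin (Dcn) measured 11.18 and 11.33 at BMP4 10 ng/ml, against 10.66, 10.68, 10.29, 10.43 and 10.46 in the controls (difference 0.75, SE 0.10, limma adjusted p = 0.00134). Both genes were already bright in the controls and lay higher in each BMP4 array. The second probe set of Prelp differed by 0.53. Biglycan (Bgn) was also bright but did not pass, at 12.40 and 12.27 at BMP4 10 ng/ml and 12.10 to 12.30 in the controls. Lum, Kera, Epyc and Podn did not pass either and were dim, with levels up to 4.91 at BMP4 10 ng/ml.

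Among 19 collagen genes, 5 rose and 1 fell (31.6%, against 2.47% of all genes), with a median of 0.25. The collagen VI chains Col6a1, Col6a2 and Col6a3 rose by 0.83, 1.02 and 0.44. Col6a2 measured 9.27 and 9.26 at BMP4 10 ng/ml, against 8.29, 8.33, 8.26, 8.25 and 8.10 in the controls, with little spread in either group. Col12a1 and Col14a1, which encode collagens that sit on fibril surfaces, rose by 1.05 and 0.80, and Col18a1, a basement membrane collagen gene, fell by 0.70. Without BMP4 10 ng/ml replicate 1, Col12a1 stood at 0.54 (adjusted p = 0.107) and Col14a1 at 0.61 (adjusted p = 0.0988).

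Genes of elastic fibres and microfibrils gave 4 rises of 16 (25% called, against 2.47% of all genes), with a median of 0.35. The 4 were Mfap5, Mfap2, Efemp1 and Fbln1. Mfap5, a microfibril glycoprotein, measured 8.57 and 7.91 at BMP4 10 ng/ml, against 7.09, 7.16, 7.05, 6.98 and 6.99 in the controls (difference 1.19, SE 0.15, limma adjusted p = 0.000577). The other 3 rose by 1.17 (Mfap2), 0.74 (Efemp1) and 0.67 (Fbln1). Without BMP4 10 ng/ml replicate 1 these 3 did not pass, with adjusted p of 0.594 (Mfap2), 0.212 (Efemp1) and 0.28 (Fbln1).

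Of 15 genes known to respond to TGF-beta, 3 rose and 2 fell (33.3%, against 2.47% of all genes), with a median of -0.06. Postn, a matricellular protein, measured 9.56 and 9.71 at BMP4 10 ng/ml, against 7.44, 8.00, 7.56, 7.79 and 7.27 in the controls (difference 2.02, SE 0.18, limma adjusted p = 4.38e-05). Tgfb2, which encodes a TGF-beta ligand, rose by 0.82, and Ccn2, a connective tissue growth factor, by 0.85. Tgfb1, which encodes the best known ligand of that family, fell by 0.52, and Pmepa1, a membrane inhibitor of TGF-beta signalling, fell by 0.58. Ccn2 did not pass without replicate 1 at BMP4 10 ng/ml (0.62, adjusted p = 0.168), and Pmepa1 did not pass without either BMP4 array (adjusted p = 0.0738 and 0.0866).

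Sarcomere genes that passed moved the other way. Of 42 sarcomere genes, 10 fell and none rose (23.8% called, against 2.47% of all genes), with a median of -0.39. Of the 42 differences, 39 were negative, against 55.8% of all genes. The 10 were Myh4, Myoz2, Tnni2, Csrp3, Tnnt3, Myl4, Tnnt1, Tnnc1, Actn3 and Acta1. Myh4, the fast IIb myosin heavy chain, measured 4.59 and 4.5 at BMP4 10 ng/ml, against 6.29, 6.56, 6.27, 6.90 and 6.09 in the controls (difference -1.88, SE 0.18, limma adjusted p = 0.000102). Myoz2, which ties calcineurin to the Z-disc, measured 6.55 and 7.10 at BMP4 10 ng/ml, against 8.42, 8.48, 8.03, 8.05 and 7.74 in the controls (difference -1.32, SE 0.19, limma adjusted p = 0.00213). Both BMP4 values lay below all controls for each gene, and Myoz2 did not pass without BMP4 10 ng/ml replicate 1 (-1.04, adjusted p = 0.0618). Tnni2, a fast troponin I, fell by 1.2 and also did not pass without that array (-0.90, adjusted p = 0.0804), while Csrp3, a muscle LIM protein, fell by 1.06 and passed under all alternatives. The embryonic myosin gene Myh3 did not pass, at 8.35 and 8.93 at BMP4 10 ng/ml and 9.63, 9.71, 8.98, 9.60 and 9.19 in the controls (difference -0.78, adjusted p = 0.0667). With a term for the run Myh3 passed (-0.79, limma adjusted p = 0.0474), as did Mybpc2, Tpm1 and Lmod3, and the falls numbered 14 of 42.

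The 2 BMP4 arrays differed in the number of sarcomere genes called. Within its own run, replicate 1 had 18 sarcomere genes that fell (2.17% of all genes fell in that comparison) and replicate 2 had 6 (1.86% of all genes). The median difference of the 42 genes was -0.77 in replicate 1 and -0.12 in replicate 2. The size of the difference was larger in replicate 1 for 39 of the 42, against 61.2% of all genes. Of these genes Actn2, which encodes a Z-disc actinin, was called in the test of the difference between the arrays.

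**Figure D2:**
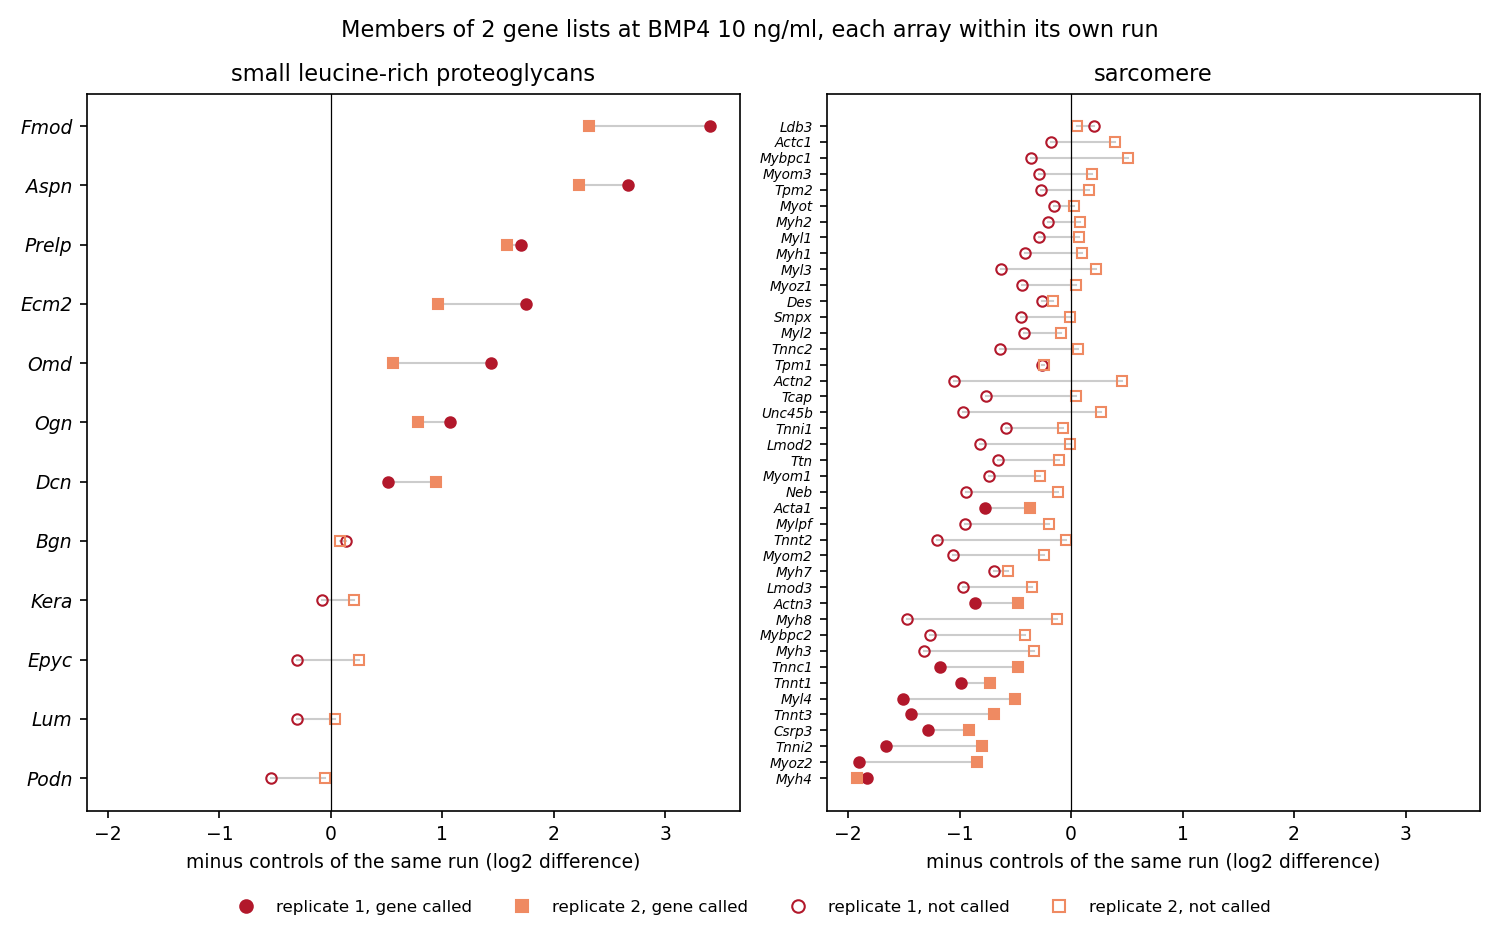
Log2 difference from the controls of the same run (horizontal axis) for the 12 small leucine-rich proteoglycans and the 42 sarcomere genes measured, circles for BMP4 10 ng/ml replicate 1 and squares for replicate 2, filled where the gene passed against all controls. The filled proteoglycans lie to the right of 0 in both arrays, and the sarcomere circles mostly lie left of the squares, with medians of -0.77 and -0.12.

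Genes for calcium handling in the sarcoplasmic reticulum gave 4 falls of 15 (26.7% called, against 2.47% of all genes), with a median of -0.32. The 4 were Casq1, Casq2, Cacna1s and Atp2a2. Casq1, the fast calsequestrin that stores calcium, measured 5.76 and 5.59 at BMP4 10 ng/ml, against 7.32, 7.73, 6.99, 7.52 and 7.04 in the controls (difference -1.64, SE 0.20, limma adjusted p = 0.000476). Cacna1s, the voltage sensor of skeletal muscle, fell by 1.15, and both genes passed under all alternatives. Casq2 fell by 1.22 but stood at -0.74 with the first BMP4 10 ng/ml array left out (adjusted p = 0.104), and Atp2a2, a calcium pump, fell by 0.29 and lost the call under 12 of the 18 alternatives.

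Among 10 genes of muscle ankyrin repeats and energy metabolism, 3 fell and Car3 rose (40% called, against 2.47% of all genes). Ankrd2, a stretch-responsive protein of the sarcomere and nucleus, measured 6.39 and 6.76 at BMP4 10 ng/ml, against 9.18, 9.33, 8.88, 8.88 and 8.48 in the controls (difference -2.37, SE 0.20, limma adjusted p = 4.38e-05). Its relative Ankrd23 fell by 1.5. Ckm, the muscle creatine kinase, measured 7.23 and 8.22 at BMP4 10 ng/ml, against 8.94, 8.99, 8.66, 8.61 and 8.32 in the controls (difference -0.98, limma adjusted p = 0.0444). The second BMP4 value for Ckm was just below the lowest control, and without replicate 1 at that dose the difference was -0.49 (adjusted p = 0.59).

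Myod1 and Myog did not pass at this dose. Myod1, which commits cells to the muscle lineage, measured 10.95 and 10.42 at BMP4 10 ng/ml, against 10.57, 10.69, 10.43, 10.46 and 10.48 in the controls (difference 0.16, adjusted p = 0.82). Myog, which drives terminal differentiation, measured 10.87 and 11.30 at BMP4 10 ng/ml, against 11.17, 11.22, 10.94, 10.85 and 10.69 in the controls (difference 0.11, SE 0.26, adjusted p = 0.949). For both genes the ranges of the groups overlapped, and the sign of each difference turned when 1 BMP4 array was left out. Myf5, the regulator of early myoblasts, measured 9.94 and 9.61 at BMP4 10 ng/ml, against 9.20, 9.15, 9.46, 9.23 and 9.39 in the controls (difference 0.49, limma adjusted p = 0.0324). It was above all controls in both BMP4 arrays, but stood at 0.32 (adjusted p = 0.428) without replicate 1. In the list of 15 myogenic regulators, Eya1 also rose (0.35) and Six4 fell (-0.38), and each of these 2 lost the call under 9 or more alternatives. Called genes made 20% of that list, against 2.47% of all genes.

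Genes for adhesion and fusion of myoblasts gave 2 rises (Adam12 and Jam3) and 2 falls (Itga7 and Myof) of 13 (median -0.21). Called genes made 30.8% of that list, against 2.47% of all genes. Jam3 and Myof lost the call under 11 and 9 alternatives. Adam12, a membrane protease of fusing myoblasts, measured 6.60 and 7.12 at BMP4 10 ng/ml, against 6.15, 6.02, 6.15, 6.06 and 6.17 in the controls (difference 0.75, SE 0.14, limma adjusted p = 0.0124). Replicate 2 was the higher BMP4 array, and without it the difference was 0.49 (adjusted p = 0.149). Itga7, the laminin receptor of muscle, fell by 0.70 but stood at -0.43 with the first BMP4 10 ng/ml array left out (adjusted p = 0.356). At the neuromuscular junction, Lrp4 (0.54) and Musk (0.38) rose and Chrnd fell, of 10 genes (30% called, against 2.47% of all genes). The 2 rises lost the call under 9 alternatives each. Chrnd, an acetylcholine receptor subunit, fell by 1.04 but stood at -0.67 with the first BMP4 10 ng/ml array left out (adjusted p = 0.45).

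The direct targets of the BMP pathway were examined next. Of 18 such genes, Smad9 alone passed in the fit without a run term (5.56%, against 2.47% of all genes). There were 15 positive and 3 negative differences, with a median of 0.10. With a run term 3 rose, namely Smad9, Smad6 and Atoh8 (0.67, limma adjusted p = 0.0338), and Grem1 fell. Smad9, a receptor-activated SMAD, measured 6.5 and 5.77 at BMP4 10 ng/ml, against 5.35, 5.10, 5.36, 5.18 and 4.98 in the controls (difference 0.94, SE 0.20, limma adjusted p = 0.0227). Replicate 2 was lower than replicate 1 but above each control. Without replicate 1 the difference was 0.58 (adjusted p = 0.388), and without methanol replicates 1 and 2 in turn it was 0.92 (adjusted p = 0.0543) and 0.94 (adjusted p = 0.0503).

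The 2 BMP4 arrays lay far apart for Id1, Id2 and Id3 but not for Id4. Id1, an inhibitor of helix-loop-helix factors such as MyoD, measured 9.04 and 7.04 at BMP4 10 ng/ml, against 7.02, 7.33, 7.29, 7.20 and 7.37 in the controls. Replicate 1 was thus far above all controls and replicate 2 was within their range. The difference from all controls was 0.80 (SE 0.38, adjusted p = 0.484), and it was -0.20 without replicate 1. Id2 measured 10.27 and 8.95 at BMP4 10 ng/ml, against 9.09, 9.38, 9.58, 9.72 and 9.82 in the controls. Id3 measured 10.08 and 8.82 at BMP4 10 ng/ml, against 8.90, 8.73, 8.84, 8.79 and 8.91 in the controls. Id4 measured 5.13 and 5.21 at BMP4 10 ng/ml, against 5.30, 5.02, 4.94, 5.17 and 5.12 in the controls (difference 0.06, adjusted p = 0.952), with both arrays among the controls. For Id2 and Id3 replicate 1 was above each control, whereas replicate 2 was below all controls for Id2 and among them for Id3.

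The inhibitory SMAD genes were also higher in replicate 1 than in replicate 2. Smad6 measured 7.91 and 6.57 at BMP4 10 ng/ml, against 6.02, 5.98, 6.04, 5.81 and 5.94 in the controls. Both arrays were above all controls, but the difference of 1.28 (SE 0.32) had an adjusted p of 0.0537 in limma. Smad6 passed with a run term (1.22, limma adjusted p = 0.00897), with the 7 arrays alone (adjusted p = 0.0124), without the labelling term (0.0369), with the dim filter (0.0467) and without replicate 2 (0.00631). Smad7 measured 7.50 and 6.5 at BMP4 10 ng/ml, against 6.90, 7.02, 6.87, 6.89 and 6.98 in the controls, so the arrays lay on either side of the controls. Bambi, a decoy receptor, and the homeobox genes Msx2 and Dlx5 did not pass, and their groups overlapped (Bambi 6.14 and 6.03 at BMP4 10 ng/ml, against 5.90 to 6.25 in the controls).

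Within its own run, replicate 1 had 6 of the 18 targets raised (3.47% of all genes rose in that comparison), and replicate 2 had none raised (0.879% of all genes) and 2 lowered. The difference between the arrays was 1.81 for Id1 (SE 0.34, limma adjusted p = 0.0699) and 1.57 for Id2 (SE 0.27, limma adjusted p = 0.052), and neither passed. With run means of the controls alone, an alternative added after seeing the data, Id1 and Id2 (each 0.000956), Id3 (0.00111), Smad6 (0.0108) and Smad7 (0.0187) passed. At 100 ng/ml replicate 1 was also the higher array, with 8.71 and 7.80 for Id1, 9.08 and 7.86 for Smad6 and 8.72 and 7.50 for Smad7. These arrays at 100 ng/ml shared in the run shift of the fit that gave 1.81 for Id1 and 1.57 for Id2. With run means of the controls alone, where they did not, the differences were 2.11 for Id1 and 1.8 for Id2. At 300 ng/ml the 2 arrays differed less, with 8.46 and 8.24 for Id1, 9.43 and 9.12 for Smad6 and 8.81 and 8.91 for Smad7.

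Genes for receptors, ligands and antagonists of BMPs were taken next. Called genes made 5.26% of receptors and SMADs, 6.67% of ligands and 15.4% of antagonists, against 2.47% of all genes. Among 19 receptor and SMAD genes, Tgfbr2, the type II receptor of TGF-beta, was the one that passed, and it fell by 0.51. It measured 8.00 and 7.98 at BMP4 10 ng/ml, against 8.61, 8.51, 8.52, 8.48 and 8.37 in the controls, but did not pass without either BMP4 array (adjusted p = 0.12 and 0.0902). Among 13 secreted antagonists, Bmper fell by 0.80 and Fstl1 rose by 0.49. Grem1, the antagonist with the largest change, lay below all controls in both BMP4 arrays but did not pass (-0.88, adjusted p = 0.055). With a run term Grem1 passed (-0.89, limma adjusted p = 0.0361), as did Fst and Chrdl1, so that 2 of the 13 rose and 3 fell. Bmper measured 6.04 and 5.74 at BMP4 10 ng/ml, against 6.70, 6.74, 6.77, 6.47 and 6.76 in the controls. Among 15 BMP and GDF ligand genes, Inhbb, an activin subunit, fell by 0.80. Without 1 BMP4 array Bmper (-0.64, adjusted p = 0.0656), Fstl1 (0.39, adjusted p = 0.0954) and Inhbb (-0.74, adjusted p = 0.104) did not pass.

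Called genes made 14.3% of the osteoblast and 10.5% of the chondrocyte genes measured, against 2.47% of all genes. Of 14 osteoblast genes measured, Phex rose and Ank fell, and the median difference was 0.09. Phex, a peptidase of phosphate balance in bone, measured 8.15 and 6.72 at BMP4 10 ng/ml, against 5.43, 5.57, 5.66, 5.47 and 5.96 in the controls (difference 1.82, SE 0.28, limma adjusted p = 0.00329). Ank, a pyrophosphate transporter, fell by 0.57 and stood at -0.43 (adjusted p = 0.132) without replicate 2. Sp7, a transcription factor needed for osteoblasts, measured 5.76 and 4.65 at BMP4 10 ng/ml, against 4.06, 4.40, 4.37, 4.45 and 4.43 in the controls (difference 0.86, SE 0.38, adjusted p = 0.408). Alpl, the alkaline phosphatase of mineralising cells, measured 5.24 and 5.02 at BMP4 10 ng/ml, against 4.72, 5.10, 4.81, 5.18 and 4.68 in the controls (difference 0.23, adjusted p = 0.933). Sp7 was above the controls in both arrays, mainly in replicate 1, and Alpl overlapped with them. Chondrocyte genes gave 1 rise (Prg4, which encodes lubricin) and 1 fall (Sox9, which fell by 0.51) of 19, with a median of -0.01, and Sox9 did not pass without BMP4 10 ng/ml replicate 2 (-0.42, adjusted p = 0.0745).

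**Figure D3:**
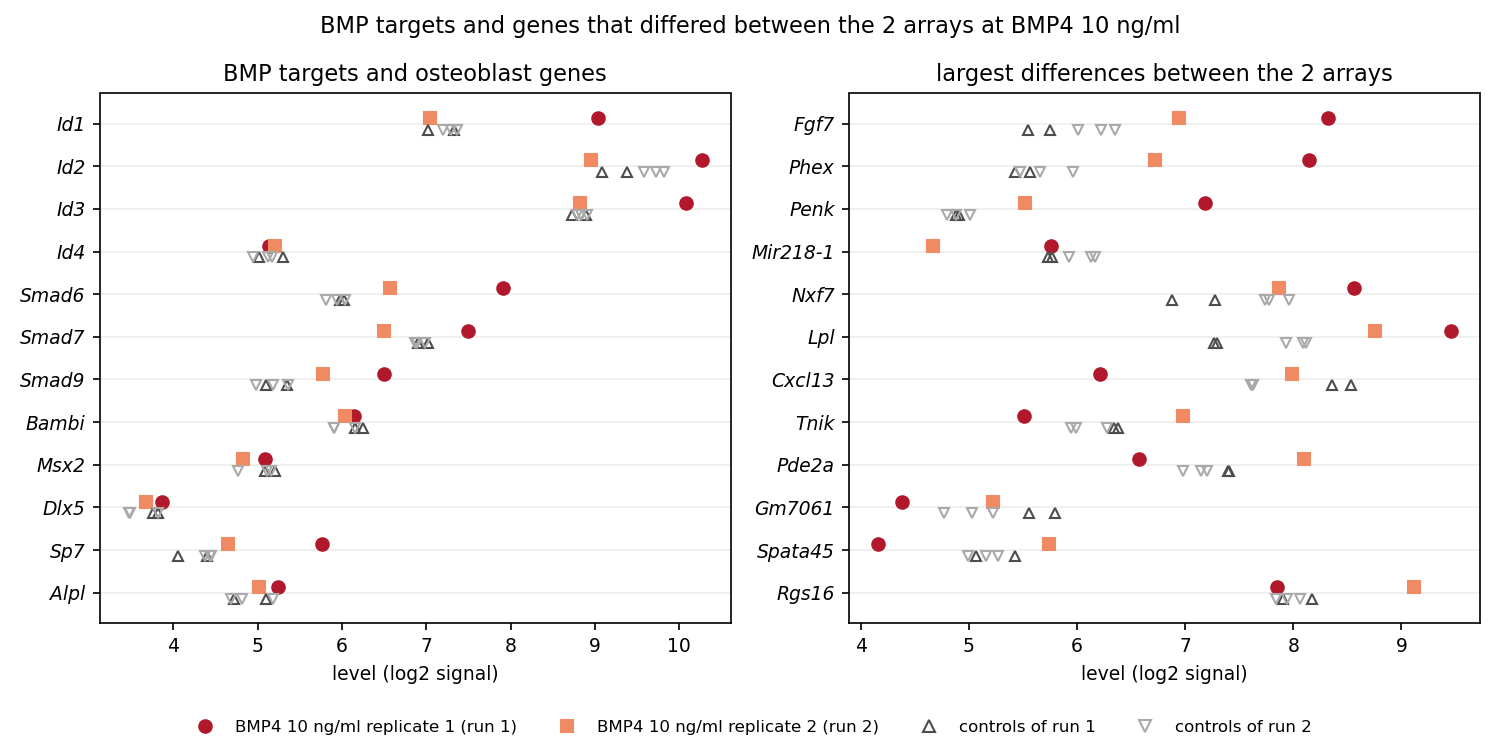
Levels (log2 signal, horizontal axis) of 12 BMP target and osteoblast genes and of 12 genes with the largest differences between the arrays, with filled symbols for the 2 BMP4 10 ng/ml arrays above open symbols for the 5 controls, by run. Id1 lies at 9.04 in replicate 1 and at 7.04 in replicate 2, the second among its controls.

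Growth factor genes were divided. Of 10 genes of the IGF system, Igf1, Igf2 and Igfbp3 rose and Igfbp2 and Igfbp4 fell (50% called, against 2.47% of all genes). Igf2, a fetal growth factor made by muscle cells, measured 9.09 and 9.03 at BMP4 10 ng/ml, against 8.11, 8.13, 7.94, 8.03 and 7.96 in the controls (difference 1.03, SE 0.10, limma adjusted p = 9.14e-05). Igf1 measured 7.32 and 7.42 at BMP4 10 ng/ml, against 6.04, 6.39, 6.06, 5.89 and 5.82 in the controls (difference 1.33, SE 0.23, limma adjusted p = 0.00663). The 2 BMP4 arrays lay close together for both ligands, though Igf1 did not pass without either BMP4 array (adjusted p = 0.0781 and 0.0656). Of 13 FGF genes, Fgf7 and Fgfr4 rose while Dusp6 and Etv4 fell (30.8% called, against 2.47% of all genes). Dusp6, a phosphatase of ERK that FGF signalling induces, measured 8.04 and 8.32 at BMP4 10 ng/ml, against 9.25, 9.39, 9.24, 9.35 and 9.31 in the controls (difference -1.13, SE 0.11, limma adjusted p = 7.39e-05). Etv4, a transcription factor of the same response, fell by 0.93, and both passed under all alternatives, although the second probe set of Dusp6 differed by 0.09. Fgfr4 did not pass without either BMP4 array (adjusted p = 0.159 and 0.0588). Fgf7 stood at 0.96 with the first BMP4 10 ng/ml array left out (adjusted p = 0.12).

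Called genes made 25% of the Wnt antagonists, 8.33% of the Wnt targets and 20% of the prostaglandin list, against 2.47% of all genes. They made 15.4% of the chemokines and 21.4% of the adipocyte genes. Among Wnt antagonists, Sfrp2 rose, and Apcdd1 (-1.11) and Dkk2 (-0.69) fell, of 12 measured. Dkk2 did not pass without BMP4 10 ng/ml replicate 2 (-0.41, adjusted p = 0.258). Of 12 Wnt target genes Ccn5 rose by 0.78. In the prostaglandin list Hpgd, which breaks prostaglandins down, and Ptgfr rose, of 10. Hpgd measured 8.01 and 7.98 at BMP4 10 ng/ml, against 5.98, 6.0, 6.79, 6.56 and 6.55 in the controls (difference 1.62, SE 0.19, limma adjusted p = 0.000476). Ptgfr, a prostaglandin receptor, rose by 0.68 and stood at 0.43 (adjusted p = 0.411) without replicate 1. Of 13 chemokine genes Ccl7 and Cxcl12 rose, by 1.03 and 1.13, but without replicate 1 they stood at 0.90 (adjusted p = 0.119) and 0.57 (adjusted p = 0.165). Of 14 adipocyte genes Lpl and Pparg rose and Plin2 fell. Lpl, a lipase of the vessel wall, measured 9.46 and 8.76 at BMP4 10 ng/ml, against 7.30, 7.27, 7.93, 8.12 and 8.09 in the controls, and its difference of 1.37 stood at 1.01 (adjusted p = 0.235) without replicate 1. Pparg, a regulator of fat cells, rose by 0.62 and stood at 0.37 (adjusted p = 0.465) without that array, with the call lost under 8 alternatives. Plin2, a lipid droplet protein, fell by 0.46 and stood at -0.30 (adjusted p = 0.265) without replicate 2, with the call lost under 9.

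Stress and cycle genes were described next. Called genes made 20% of the unfolded protein and integrated stress list, 20% of the p53 targets and 8.7% of the S and M phase genes. Over all genes the share was 2.47%. In the unfolded protein and integrated stress list Chac1, Sesn2, Asns and Mthfd2 rose, by 0.89, 0.64, 0.49 and 0.43, of 20 measured (median 0.04). Asns, which makes asparagine, measured 10.32 and 10.21 at BMP4 10 ng/ml, against 9.70, 9.68, 9.73, 9.92 and 9.86 in the controls, with no overlap. None of the 4 passed without BMP4 10 ng/ml replicate 1, with adjusted p from 0.0742 (Sesn2) to 0.22 (Mthfd2). Of the 15 p53 targets Btg2 and Trp53inp1 rose beside Sesn2, and Btg2, an antiproliferative gene, rose by 0.72 and passed under every alternative, while Trp53inp1 stood at 0.48 with the first BMP4 10 ng/ml array left out (adjusted p = 0.214). All 23 genes of S and M phase had positive differences (median 0.24), whereas 9799 of all 22180 genes did (median -0.023). Of the 23, 2 passed, Ccnb2 and Cenpa, and each call was lost under 10 or more alternatives. Within its own run the median of the 23 was 0.34 in replicate 1 and 0.11 in replicate 2, against -0.057 and 0 over all genes. No interferon gene passed of 14, and the largest change there was Mx2 (-0.31, adjusted p = 0.481).

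Each BMP4 10 ng/ml array was then set against the controls of its own run, 2 in run 1 and 3 in run 2. In the fit that gave the calls, the arrays at the middle BMP4 dose also shared in the run shift. The calls therefore did not rest on the controls of the run alone. More genes were called for each array with run means of the controls alone, an alternative added after seeing the data. Replicate 1 had 769 genes that rose and 482 that fell (5.64% of all genes), and replicate 2 had 195 and 412 (2.74%). With 1 array per run the spread was taken from groups with several arrays. Both comparisons called 141 genes higher and 173 lower, and 3 genes were called in opposite directions. Over the genes raised against all controls, the median difference was 0.94 in replicate 1 and 0.60 in replicate 2, and 203 of the 248 were larger in replicate 1. Over the lowered genes the medians were -0.78 and -0.72, and 160 of the 300 were larger in replicate 1. All 248 and all 300 had the same sign in both runs, a property that the call itself favours. Over all genes the differences had an SD of 0.34 in replicate 1 and 0.26 in replicate 2. These counts changed with single controls. Replicate 1 gave 729 genes without untreated replicate 1, and replicate 2 gave 379 without methanol replicate 2 and 391 without methanol replicate 3.

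**Figure D4:**
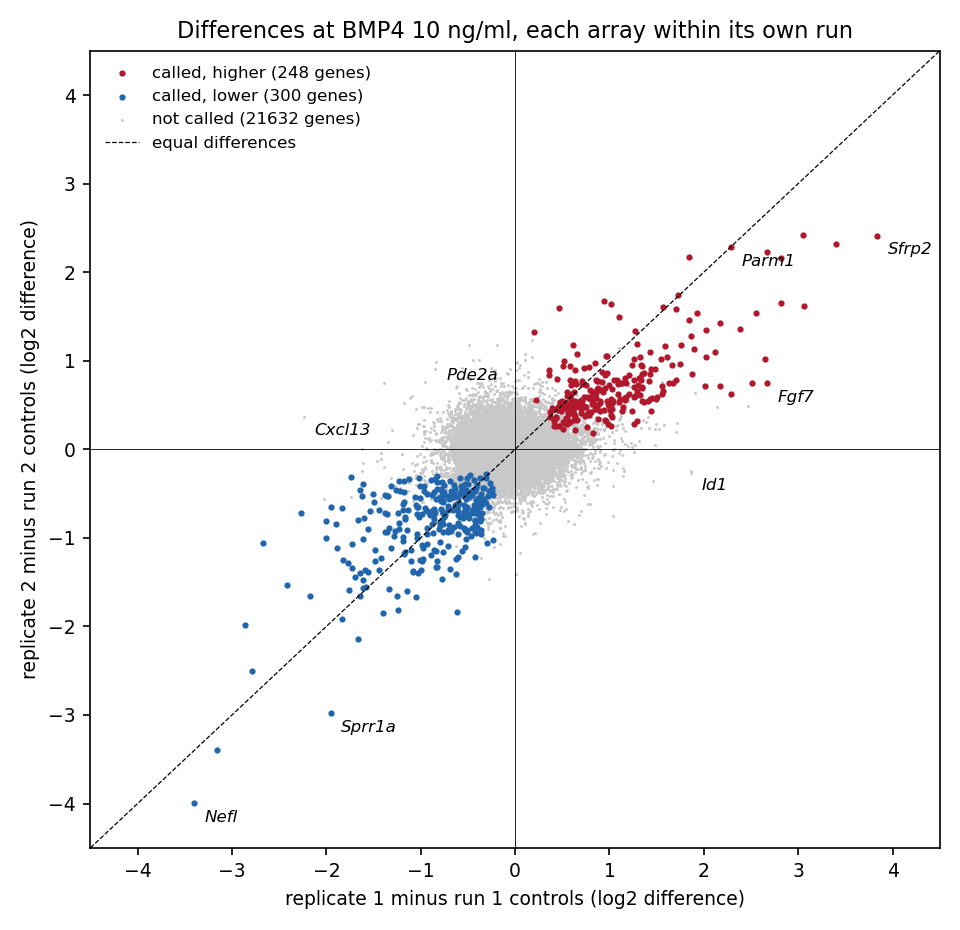
Log2 difference of BMP4 10 ng/ml replicate 1 from the run 1 controls (horizontal axis) against that of replicate 2 from the run 2 controls (vertical axis) for 22180 genes, coloured where called against all controls. Raised genes lie mostly below the dashed line of equal differences (203 of 248 larger in replicate 1), and the medians over raised genes are 0.94 and 0.60.

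The difference between the 2 responses was tested directly. It passed for 46 genes (0.207% of all genes), with 27 higher and 19 lower in replicate 1, and 3498 genes had an unadjusted p under 0.05. In 28 of the 46 the 2 within-run differences had opposite signs, and 12 of the 46 were also called against all controls. The count was 256 with run means taken from the controls alone, an alternative added after seeing the data. After quantile normalization the count was 22, with 7 higher and 15 lower in replicate 1. It fell to between 1 and 13 when any 1 control was left out, namely 3 without untreated replicate 1, 1 without methanol replicate 1, 13 without untreated replicate 2, and 2 without methanol replicate 2 or 3. With 1 array per run, a difference belongs to those 2 arrays, and BMP4 response and run cannot be told apart.

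Of the 24 genes with the largest differences, Cxcl13 alone passed under all 10 alternatives. Cxcl13, a chemokine for B cells, measured 6.21 and 7.99 at BMP4 10 ng/ml, against 8.36 and 8.53 in the controls of run 1 and 7.62, 7.61 and 7.63 in those of run 2. Within its run, replicate 1 differed by -2.24 and replicate 2 by 0.37, a fitted difference of -2.69 (SE 0.17, limma adjusted p = 0.000123). Its levels at 100 ng/ml were 5.83 and 4.73 and at 300 ng/ml 5.77 and 4.93. Pde2a, a phosphodiesterase that cyclic GMP activates, measured 6.57 and 8.10 at BMP4 10 ng/ml, against 7.41 and 7.40 in run 1 controls and 7.15, 7.20 and 6.98 in run 2 controls. Its fitted difference was -1.74 (SE 0.18, limma adjusted p = 0.00885), and it passed under 8 of 10 alternatives, 4 of the 5 that leave out a control among them, with the highest adjusted p at 0.0816.

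Other genes were lower in replicate 1 than in replicate 2. Actn2 (6.06 and 7.37 at BMP4 10 ng/ml, against 6.75 to 7.14 in the controls), the fusion peptide gene Mymx (5.60 and 6.63, against 6.47 to 7.26), and Fndc5, the precursor of irisin (7.30 and 8.21, against 7.43 to 7.84), were among them. Dbh, which makes noradrenaline, measured 6.89 and 8.01 at BMP4 10 ng/ml, against 6.86 to 7.33 in the controls. When each control was left out in turn, Actn2 and Mymx passed in 0 of 5 fits (adjusted p 0.0562 to 0.0794 and 0.0889 to 0.129), and Fndc5 and Dbh in 1 of 5. Mymx was within the control range in replicate 2 and below it in replicate 1. Rgs16, Cap2 and Tnik were above the controls in replicate 2 and within or below them in replicate 1. At 100 and 300 ng/ml the means were 4.73 and 4.47 for Actn2, 5.35 and 4.78 for Cap2, and 5.44 and 5.25 for Dbh, all below the controls.

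The genes higher in replicate 1 included those of several secreted factors. Fgf7, a growth factor for epithelia, measured 8.32 and 6.94 at BMP4 10 ng/ml, against 5.55 and 5.75 in run 1 controls and 6.22, 6.01 and 6.35 in run 2 controls (fitted difference 1.78, SE 0.25, limma adjusted p = 0.0309). Penk, which encodes proenkephalin, measured 7.18 and 5.52 at BMP4 10 ng/ml, against 4.91 and 4.88 in run 1 controls and 4.80, 4.88 and 5.01 in run 2 controls (fitted difference 1.64, SE 0.20, limma adjusted p = 0.0199). Within its run, replicate 1 was 2.67 higher for Fgf7 and 2.29 for Penk, and replicate 2 was 0.74 and 0.62 higher. Without 1 control Fgf7 passed in 0 of 5 fits (adjusted p 0.0562 to 0.0679) and Penk in 1 of 5 (0.0299 to 0.0602). Grem1 passed in 1 of 5, and Hgf and Cebpa in 0 of 5. Hgf, the ligand of the MET receptor, measured 10.07 and 9.36 at BMP4 10 ng/ml, against 8.40 and 8.30 in run 1 controls and 9.04, 9.0 and 9.14 in run 2 controls. Here the controls of the runs also differed. Grem1, a BMP antagonist, measured 8.21 and 7.14 at BMP4 10 ng/ml, against 8.39 and 8.58 in run 1 controls and 8.36, 8.74 and 8.70 in run 2 controls, so replicate 2 was the lower array. The adipocyte factor gene Cebpa measured 6.92 and 5.77 at BMP4 10 ng/ml, against 5.76 to 6.2 in the controls.

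The levels at 10 ng/ml were then placed beside those at 100 and 300 ng/ml, in a comparison added after seeing the data that uses the same 2 arrays at 10 ng/ml. An array value that is high there raises both differences. Against the mean of 100 and 300 ng/ml, 853 genes were higher at 10 ng/ml (3.85%) and 634 lower (2.86%), 6.7% of all genes in sum. The term for the labelling method takes up the first array at 300 ng/ml, so the fitted mean of that dose rests on replicate 2, and 1935 genes passed without the term. Without replicate 2 at 10 ng/ml the total was 748 genes. Of the 248 genes raised at 10 ng/ml, 56 were lower there than at the higher doses, 41 were higher, and 151 did not pass. Of the 300 lowered genes, 90 were higher at 10 ng/ml than at the higher doses, 12 were lower, and 198 did not pass.

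Of the 7 raised proteoglycans, 5 were lower at 10 ng/ml than at the higher doses (Fmod, Aspn, Prelp, Omd and Dcn), and Ogn (-0.37, adjusted p = 0.123) and Ecm2 (-0.13, adjusted p = 0.81) did not pass. Sfrp2 stood at 5.96 to 6.10 in the controls, 9.89 and 8.40 at 10 ng/ml, 11.68 and 11.20 at 100 ng/ml and 11.59 and 11.57 at 300 ng/ml. Prelp and Hpgd were lower at 10 ng/ml than at the higher doses, by 1.44 and 2.38 on the log2 scale. Car3 had 10.89 and 11.33 at 100 ng/ml and 10.68 and 11.02 at 300 ng/ml, and its level at 10 ng/ml exceeded their mean by 0.05 (adjusted p = 0.92).

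A few genes were above both the controls and the higher doses at 10 ng/ml. Parm1 stood at 5.41 to 5.81 in the controls, 7.94 and 7.82 at 10 ng/ml, 6.13 and 6.57 at 100 ng/ml and 5.81 and 6.11 at 300 ng/ml. Its level at 10 ng/ml exceeded the mean of the higher doses by 1.65 (SE 0.19, limma adjusted p = 5.36e-05). Igf2 stood at 7.94 to 8.13 in the controls, 9.09 and 9.03 at 10 ng/ml, 8.24 and 8.45 at 100 ng/ml and 8.09 and 8.03 at 300 ng/ml, so that at 300 ng/ml it was within the control range. Of the genes called in both comparisons with the same sign, the 10 with the largest changes, a rule made after seeing values, were Sulf2, Rragd, Parm1, Chn2, Igf1, Clca2, Tnc, Rgs13, Pcx and Igfbp3. Sulf2, a sulfatase that edits heparan sulfate, measured 7.23 to 7.74 in the controls, 9.46 and 8.50 at 10 ng/ml, 6.94 and 8.04 at 100 ng/ml and 6.62 and 6.42 at 300 ng/ml. Tnc, the matricellular tenascin C, ran the other way, at 10.87 to 10.96 in the controls, 10.20 and 10.27 at 10 ng/ml, 11.54 and 11.06 at 100 ng/ml and 11.66 and 11.86 at 300 ng/ml. Against the controls, Sulf2 (1.02, adjusted p = 0.22) and Tnc (-0.64, adjusted p = 0.0546) did not pass without replicate 1, and neither did Rragd (0.74, adjusted p = 0.178). Chn2 (-0.41, adjusted p = 0.219) did not pass without replicate 2, and Clca2 and Igf1 did not without either.

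Several known BMP response genes did not pass at 10 ng/ml in the fit without a run term, and lay outside the control range at the higher doses. For Sp7 both arrays at 10 ng/ml lay above all controls, and for Myh3 both lay below them. Sp7 stood at 4.06 to 4.45 in the controls, 5.76 and 4.65 at 10 ng/ml, 9.87 and 8.03 at 100 ng/ml and 10.43 and 10.40 at 300 ng/ml. Alpl stood at 4.68 to 5.18 in the controls, 5.24 and 5.02 at 10 ng/ml, 9.53 and 7.19 at 100 ng/ml and 10.33 at 300 ng/ml on both arrays. The differences at 10 ng/ml from the higher doses were -4.47 for Sp7 (limma adjusted p = 3.47e-05) and -4.21 for Alpl (limma adjusted p = 0.000109). Myog stood at 10.69 to 11.22 in the controls, 10.87 and 11.30 at 10 ng/ml, 6.83 and 8.17 at 100 ng/ml and 6.64 and 5.94 at 300 ng/ml, a difference of 4.37 between 10 ng/ml and the higher doses (limma adjusted p = 2.12e-06). Myh3 differed by 4.38 in the same comparison. For Myh4, Mcpt8 and Nptx1 the level at 10 ng/ml differed from that at the higher doses by -0.10, -0.01 and -0.02, which did not pass (adjusted p = 0.874, 0.983 and 0.974) and does not show that the levels are alike.

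**Figure D5:**
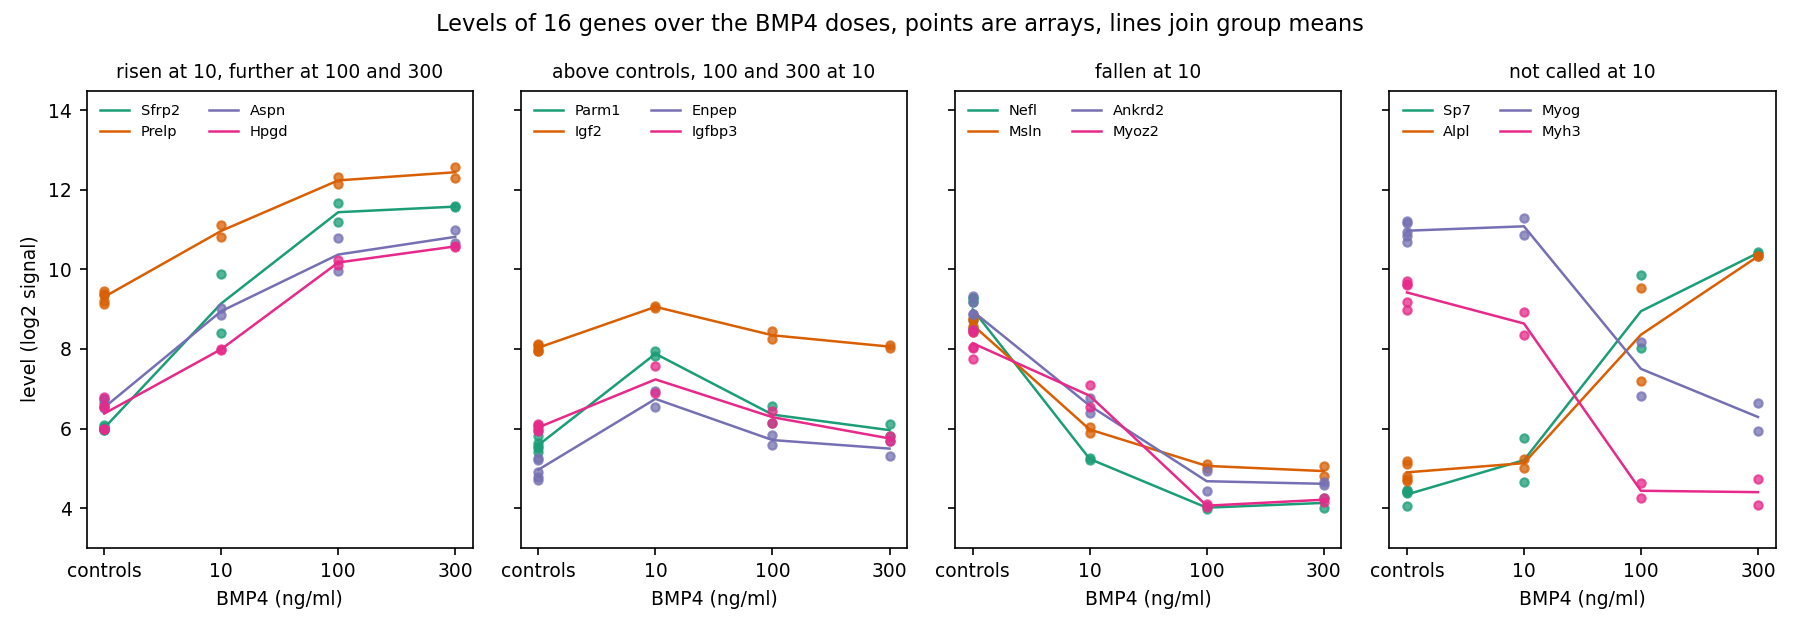
Levels (log2 signal, vertical axis) of 16 genes in the controls and at BMP4 10, 100 and 300 ng/ml, in order of dose, with points for arrays and lines through group means. Sfrp2 rises further after 10 ng/ml, Parm1 is highest at 10 ng/ml (7.94 and 7.82), Nefl has already fallen to 5.22 and 5.25, and Myog leaves the control range at 100 ng/ml.

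Promoter sequences are shown for 4 genes the results turn on, the raised genes Sfrp2 and Smad9 and the lowered muscle genes Ankrd2 and Myh4. They were taken from RefSeq (build GRCm38.p6), cover the 250 bases before the annotated start on the plus strand, and are written 5′ to 3′ in lower case. Capitals mark GGCGCC, a GC-rich motif that BMP SMADs are known to bind, and CAGCTG, an E-box that MyoD and myogenin are known to bind. Each motif is its own reverse complement, so 1 search covers both strands, and the 2 do not overlap in these windows.
Sfrp2, chr3:83766071-83766320: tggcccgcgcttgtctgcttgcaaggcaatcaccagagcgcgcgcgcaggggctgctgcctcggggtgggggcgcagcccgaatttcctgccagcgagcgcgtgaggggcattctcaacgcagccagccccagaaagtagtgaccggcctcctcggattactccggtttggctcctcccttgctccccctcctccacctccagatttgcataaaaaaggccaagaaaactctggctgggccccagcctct
Smad9, chr3:54755332-54755581: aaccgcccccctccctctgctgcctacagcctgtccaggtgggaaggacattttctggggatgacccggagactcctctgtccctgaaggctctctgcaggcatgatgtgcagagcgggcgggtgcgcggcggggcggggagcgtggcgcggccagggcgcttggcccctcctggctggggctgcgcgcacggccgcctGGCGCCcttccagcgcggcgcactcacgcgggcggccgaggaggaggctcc
Ankrd2, chr19:42035777-42036026: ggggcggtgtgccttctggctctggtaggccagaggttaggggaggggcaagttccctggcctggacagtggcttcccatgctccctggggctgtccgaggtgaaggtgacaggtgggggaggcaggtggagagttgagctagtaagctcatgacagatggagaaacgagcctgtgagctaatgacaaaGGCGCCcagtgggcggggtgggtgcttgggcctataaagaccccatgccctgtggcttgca
Myh4, chr11:67237562-67237811: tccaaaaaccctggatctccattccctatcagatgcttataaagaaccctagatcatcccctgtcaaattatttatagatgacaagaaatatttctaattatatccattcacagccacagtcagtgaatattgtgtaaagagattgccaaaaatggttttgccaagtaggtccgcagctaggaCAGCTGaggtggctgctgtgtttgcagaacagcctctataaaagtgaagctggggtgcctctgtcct
GGCGCC occurred once each for Smad9 and Ankrd2, which moved in opposite directions, and CAGCTG once for Myh4. The letters of neither motif were in the window of Sfrp2. Over all 32851 windows of 250 bases, 9.59% held GGCGCC and 13% held CAGCTG. Among measured genes the shares were 12.4% and 12.6% of 20611 windows. Raised genes had a window for 181 of 248, and 15% and 14.6% of their 226 windows held GGCGCC and CAGCTG. Lowered genes had a window for 216 of 300, with shares of 12.6% and 17.5% of 285 windows. Of the 39 windows of the sarcomere list, which covered 33 of its 42 genes, 12 held CAGCTG (30.8%) and 1 held GGCGCC. A match is a description of the letters and not a site.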

How the data were processed

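RNA of 20 C2C12 wells was hybridised to Affymetrix arrays. The deposited values are log2 signals, made with RMA in Partek 6.5 per the submitters' processing notes. The labels name the Affyexpress method for 4 arrays, and the sources used here do not say whether values were corrected for it. Of 41345 probe sets, 23521 had 1 gene symbol, 1814 had several and 16010 had none in the platform annotation. Each gene took the probe set with the highest mean, which left 22180 genes, 1082 of them with several probe sets. The precision is limited by 2 BMP4 10 ng/ml and 5 control arrays, and the median SE of a log2 difference was 0.139.

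limma 3.58.1 in R 4.3.3 fitted all 20 arrays with 1 control mean, a mean for each dose and a labelling term, with the spread following the mean signal. The p-values were adjusted over all genes by the Benjamini-Hochberg method, and a gene was called at an adjusted p under 0.05. A second fit gave each run its control mean and each BMP4 10 ng/ml array its own mean. The arrays at the middle BMP4 dose had 1 mean over both runs in that fit, so they shared in its run shift. The steps were tested on simulated data. Genes named are the 15 largest rises and 15 largest falls, up to 4 called members of each list, a set of BMP and muscle genes given in every case, the 12 largest differences between the arrays in each direction, and 10 genes chosen after their values were seen. A few further members are named to complete counts, also after their values were seen. The members and lists were chosen with earlier results of these data known. Alternatives changed the run term, the controls, the arrays fitted, the labelling term, the spread, the dim filter, the probe set rule and the normalization, and left out single arrays.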

Additional observations from a re-analysis of the deposited data

Results flagged for a closer look

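Among 128 genes checked in the 5 controls, 8 had 1 array far from the other 4, where chance alone flags about 1 in 20 groups. Untreated replicate 1 was low for Efemp1 (5.74, the others 6.13 to 6.22), Etv4 (6.86, the others 7.07 to 7.15) and Sp7 (4.06, the others 4.37 to 4.45). Untreated replicate 2 was low for Eya1 (9.21, the others 9.32 to 9.35) and Inhbb (6.52, the others 6.69 to 6.76). Methanol replicate 1 was high for Jam3 (6.92, the others 6.65 to 6.68). Methanol replicate 2 was low for Bmper (6.47, the others 6.70 to 6.77), and methanol replicate 3 for Msx2 (4.77, the others 5.09 to 5.20).

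The response differed between the 2 BMP4 10 ng/ml arrays for 46 genes in the limma test of that difference. The 12 largest log2 differences toward replicate 1 were 1.78 for Fgf7, 1.69 for Phex, 1.64 for Penk, 1.59 for Mir218-1, 1.4 for Nxf7, 1.39 for Lpl, 1.38 for 9930111J21Rik2, 1.37 for Cebpa, 1.29 for Sfrp2, 1.27 for Clca3b, 1.26 for Grem1 and 1.25 for Hgf. The 12 toward replicate 2 were -2.69 for Cxcl13, -1.78 for Tnik, -1.74 for Pde2a, -1.58 for Gm7061, -1.58 for Spata45, -1.48 for Rgs16, -1.47 for Mymx, -1.45 for Actn2, -1.43 for Ifnl2, -1.38 for Cap2, -1.37 for Dbh and -1.28 for Fndc5. With 1 array per run, BMP4 response and run cannot be told apart.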

How the results depend on the processing

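Of 110 named genes called against all controls, 49 were called with the same sign under all 18 alternatives. Against all controls 953 genes passed with a run term, 244 with untreated and 359 with methanol arrays alone as the control, and 248 to 573 when 1 array was left out. Replicate 1 within its run gave 700 genes with no trend of the spread and 729 to 1139 without 1 control; replicate 2 gave 282 and 379 to 555. The difference between the arrays gave 1 gene with no trend of the spread, 22 after quantile normalization, 256 with run means of the controls alone and 1 to 13 without 1 control. Against the higher doses 2533 genes passed with a run term and 748 to 1907 without 1 array. Some genes that were not called changed sign. When 1 array was left out, Bambi ranged from -0.04 to 0.07, Id1 from -0.20 to 1.79, Id2 from -0.57 to 0.76, Id3 from -0.02 to 1.25, Msx2 from -0.23 to 0.02, Myod1 from -0.11 to 0.43, Myog from -0.10 to 0.33 and Smad7 from -0.43 to 0.57. Bambi also stood at -0.01 with the run term and after quantile normalization and at -0.11 against untreated arrays, and Id2 at -0.03 against methanol arrays. The cause of these changes was not tested. The labels carry no replicate numbers, so the run served as the block, and with it Smad6, Myh3 and Grem1 were among the genes that newly passed. The low number of arrays limits what small differences could pass.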

Other observations

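Genes of cholesterol synthesis and uptake had positive differences in all 17 measured (median 0.28), whereas 9799 of all 22180 genes did (median -0.023). Within its own run the median of the 17 was 0.36 in replicate 1 and 0.07 in replicate 2. Over all genes these medians were -0.057 and 0. The size of the difference was larger in replicate 1 for 15 of the 17, against 61.2% of all genes. Of the 17, 1 passed, and 1.12% of all genes rose. Fdft1, which makes squalene, measured 10.77 and 11.10 at BMP4 10 ng/ml, against 10.47, 10.62, 10.50, 10.55 and 10.57 in the controls (difference 0.39, SE 0.09, limma adjusted p = 0.0303). Both BMP4 arrays were above all controls, but without replicate 2 Fdft1 stood at 0.23 (adjusted p = 0.286), and it lost the call under 8 of 18 alternatives. Called genes made 8.33% of the NRF2 targets, 7.14% of the hypoxia and glycolysis genes and 7.69% of the Notch genes. They made 21.4% of the matrix proteases and inhibitors, against 2.47% of all genes. Among 12 NRF2 targets Slc7a11, a cystine transporter, rose by 0.98, and its second probe set differed by 0.09. Among 14 hypoxia and glycolysis genes Egln3, an oxygen-sensing hydroxylase, fell by 0.82, and among 13 Notch genes Jag2, a ligand, fell by 0.81. Of 14 matrix proteases and inhibitors Adamts12 and Mmp2 rose by 0.63 and 0.54, and Timp1, an inhibitor of metalloproteinases, fell by 0.46. Cdkn2c, an inhibitor of cell cycle kinases, measured 8.29 and 8.35 at BMP4 10 ng/ml, against 7.40, 7.66, 7.76, 7.66 and 7.87 in the controls (difference 0.65, SE 0.13, limma adjusted p = 0.0179). Several of these calls were lost when 1 BMP4 array was left out. Without replicate 1 the difference was 0.68 for Cdkn2c, -0.76 for Egln3, -0.74 for Jag2, 0.75 for Slc7a11, 0.53 for Adamts12 and 0.38 for Mmp2. Leaving out replicate 2 gave 0.62 for Cdkn2c and -0.31 for Timp1. Without replicate 1 the adjusted p was 0.25 for Slc7a11, 0.0806 for Egln3, 0.104 for Jag2, 0.234 for Adamts12, 0.324 for Mmp2 and 0.125 for Cdkn2c. Without replicate 2 it was 0.143 for Timp1 and 0.117 for Cdkn2c.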
